A study of Mus musculus with 8 samples.

Results

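The Hedgehog pathway genes described here are Shh, Ptch1, Smo, Gli1, Gli2, Gli3, Sufu, Hhip and Boc, 9 of 18193 genes on the array, followed through irradiation-induced arrest of mouse neural stem cells (NSCs). They were chosen by name, and every probe set (a group of short probes that reads one transcript) annotated to 1 of these symbols alone was taken, which gave 24 of 45101 probe sets. RNA was measured on Affymetrix GeneChip arrays in NSCs derived from mouse embryonic stem (ES) cells, which divide in medium with EGF and FGF2. The non-irradiated group has 4 arrays, and the irradiated group (irr) has 4 arrays of NSCs given 10 Gy of X-rays and harvested 7 days later, so that n = 4 per group throughout. Both groups are cultures of established NSC lines expanded over many passages in a dish, without neurons, vessels or other cells of a brain, mostly from an E14Tg2a ES background according to the methods, which do not name the line behind these arrays. Whether the 4 samples of a group came from separately derived lines is not stated, so p-values measure the spread between these samples.

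Hedgehog ligands such as Shh are secreted proteins that bind the membrane protein Ptch1. Without ligand, Ptch1 holds back Smo, and Sufu keeps the GLI transcription factors in check, so that Gli3 and partly Gli2 are cut into repressors. With ligand, Smo moves into the primary cilium and full-length GLI proteins turn on target genes, among them Gli1, Ptch1 and Hhip, which encode an activator and a pair of inhibitors. Boc, Cdon and Gas1 are co-receptors that help the ligand bind. In the nervous system the pathway patterns the ventral neural tube and maintains neural stem cells.

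Values are log2 of the array signal after RMA normalization, and a probe set was tested where it exceeded a signal of 100 (log2 6.64) on at least 1 array. Detection calls were not used here, so this signal stands in for background. The NSC markers Sox2 and Vim were high on all arrays. Their mean log2 values in non-irradiated and irr NSCs were 12.08 and 12.30 for Sox2 and 14.10 and 14.26 for Vim. Of 10 NSC markers, 4 were called higher and 3 lower (adjusted p under 0.05 from limma), against 40.2% and 37.1% of all genes. The lower ones were Pax6 (9.38 and 8.85), Msi1 (9.05 and 8.88) and Hes5 (7.29 and 6.65). Hes5 exceeded a signal of 100 on only 2 irr arrays. Of 5 markers of pluripotent cells only Dppa5a passed that signal. Correlations over the 21919 probe sets tested were 0.991 to 0.997 within a group and 0.912 to 0.923 between the groups. On the second principal component of the same probe sets (3.68% of the variance), irr replicates 1 and 2 had scores below zero. The other irr replicates had scores above it. The actin control, whose probe sets read either end of its RNA, had a 3′ to 5′ gap of 0.26 ± 0.03 in non-irradiated and 0.51 ± 0.07 in irr NSCs (log2, SD, n = 4). By a two-sided exact permutation test this had p = 0.029, or 0.038 when adjusted over 4 controls. The gap of the transferrin receptor control went from 0.35 to 0.85 and that of pyruvate carboxylase from 0.52 to 1.06, with the same p and adjusted p, while Gapdh read -0.08 and -0.07 (exact permutation p = 0.71). The part of these gaps in the results below was not tested.

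At day 7 after irr, NSCs held more RNA of Boc and Hhip and less of Gli2, Ptch1 and Smo, while Gli3 and Sufu did not pass the test and Shh and Gli1 were below a signal of 100 on every array. Boc was 2.80-fold higher, Hhip was at least 1.45-fold higher and below a signal of 100 on all non-irradiated arrays, and the decreases ran from 1.67-fold for Gli2 to 1.15-fold for Smo. Of the 7 genes tested, each read by its brightest probe set, 5 were called at an adjusted p under 0.05 from limma (71.4%). The same call was made for 77.3% of 11372 genes tested, so the share called does not set the pathway genes apart. Genes called higher were 2 of 7, against 40.2% of all genes, and genes called lower were 3 of 7, against 37.1%. A fitted change of 2-fold or more was given for 15.1% of all genes and for 2 of the 7, Boc and Hhip, of which Hhip has only its lower bound of 1.45-fold. Hhip entered the test through the irr arrays alone, so its place in these counts is no support for them. By probe set, 12 of the 24 were tested and 8 were called (66.7%, against 75.1% of all probe sets tested). The median log2 fold change of the 7 genes was -0.10, beside 0.01 over all genes. In RNA of whole cultures, fewer cells of a type and less RNA per cell cannot be told apart.

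**Figure D1:**
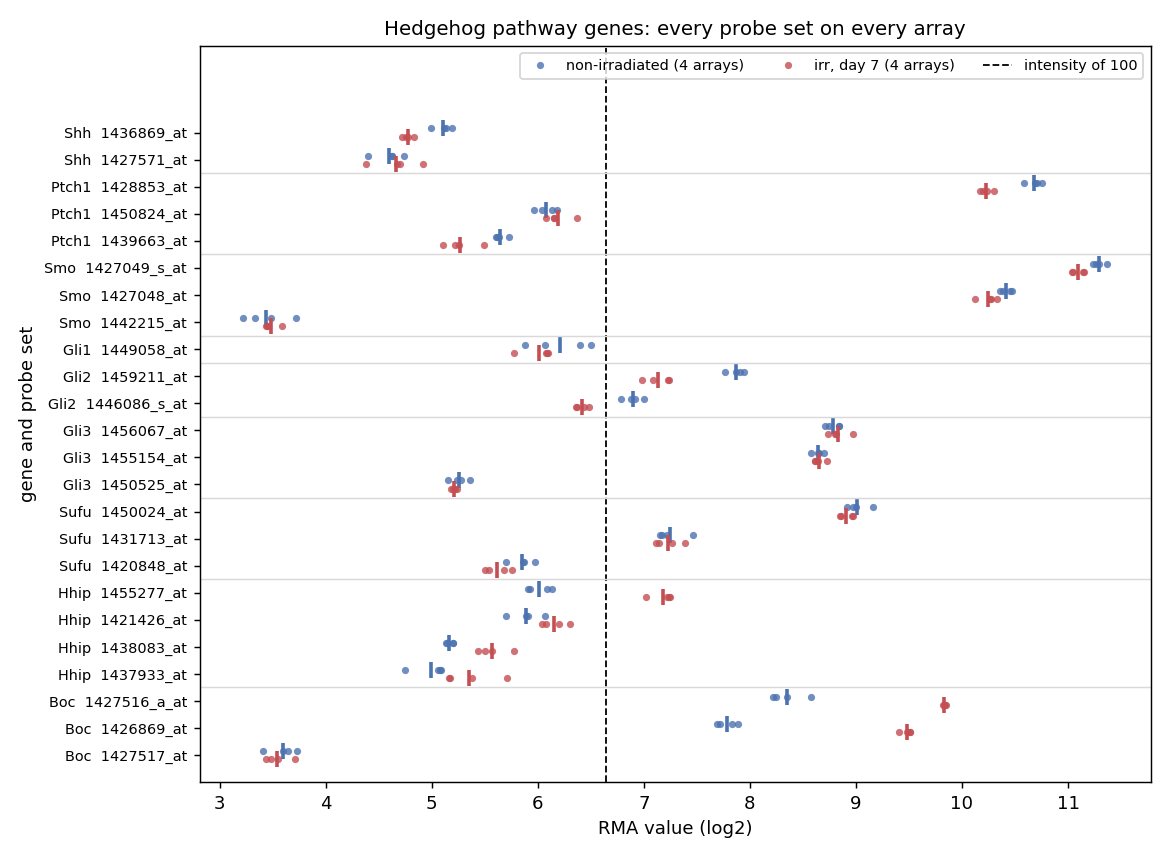
RMA values (log2, horizontal axis) of the 24 probe sets of the 9 genes (vertical axis) on each of 4 non-irradiated (blue) and 4 irr day 7 arrays (red); ticks are group means and the dashed line is a signal of 100 (log2 6.64). Right of the line, the 2 brighter Boc probe sets lie higher on all irr arrays, and the brightest ones of Gli2, Ptch1 and Smo lie lower. The brightest Hhip probe set crosses the line, and Shh and Gli1 stay left of it.

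The ligand gene Shh was not measurable above background. Its 2 probe sets ran from 4.38 to 5.19 over the 8 arrays. Probe set 1436869_at read 5.13, 5.12, 5.19 and 4.99 in non-irradiated and 4.76, 4.72, 4.78 and 4.83 in irr NSCs, so that its groups did not overlap, whereas those of 1427571_at did. Fitted with no filter, 1436869_at had a log2 fold change of -0.34 (adjusted p = 7.8e-04 from limma), a difference between values that all lie below the signal of 100. The other ligand genes, Ihh and Dhh, were also below it on every array, with brightest values of 5.92 and 6.33.

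Hhip encodes a membrane protein that binds Hedgehog ligands and keeps them from Ptch1. Its brightest probe set, 1455277_at, read 5.93, 6.13, 6.09 and 5.91 on the non-irradiated arrays and 7.02, 7.22, 7.25 and 7.24 on the irr arrays. All irr values lay above all non-irradiated ones and above the signal of 100, which no non-irradiated array reached. The group means were 6.02 and 7.18, and against a signal of 100 Hhip was at least 1.45-fold higher. As the probe set entered the test through the irr arrays alone, the filter favored a higher irr value. Its adjusted p (3.0e-07 from limma) is therefore no separate support. The other 3 Hhip probe sets were below the filter on all arrays and read 0.26 to 0.40 higher in irr NSCs.

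Boc, the co-receptor, was higher by both of its probe sets past the filter. Probe set 1427516_a_at read 8.35, 8.22, 8.25 and 8.58 in non-irradiated and 9.85, 9.84, 9.83 and 9.82 in irr NSCs. The groups lay more than a log2 unit apart, and the irr arrays differed by 0.01 (SD). Its log2 fold change was 1.48 (95% interval 1.32 to 1.65, adjusted p = 7.0e-08 from limma). A second probe set, 1426869_at, read 7.69 to 7.89 and 9.41 to 9.51, a log2 fold change of 1.69 (95% interval 1.57 to 1.82). The 2 probe sets differed in their change by 0.21, which did not pass the test (p = 0.086 in a two-sided exact permutation test, 0.21 after adjustment over 5 pairs of probe sets). The remaining Boc probe set, 1427517_at, designed on the same sequence record as 1427516_a_at, stayed between 3.41 and 3.73 on all arrays.

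Ptch1, at once receptor, inhibitor and target gene of the pathway, was lower. Probe set 1428853_at read 10.71, 10.69, 10.58 and 10.75 in non-irradiated and 10.30, 10.17, 10.20 and 10.24 in irr NSCs, so that every irr array lay below every non-irradiated one. Its log2 value fell by 0.46 (95% interval -0.57 to -0.34, adjusted p = 2.5e-05 from limma). The other 2 Ptch1 probe sets were below the filter on all arrays and read 0.11 and -0.38. Smo, the membrane protein that Ptch1 holds back, read 11.26, 11.24, 11.29 and 11.37 in non-irradiated and 11.04, 11.05, 11.15 and 11.14 in irr NSCs by probe set 1427049_s_at. The groups did not overlap, and the log2 value fell by 0.20 (adjusted p = 0.0049 from limma). By 1427048_at, from the same record, it fell by 0.17 (adjusted p = 0.017 from limma). Without irr replicates 1 and 2, Smo read -0.14 and was not called (adjusted p = 0.053 from limma).

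**Figure D2:**
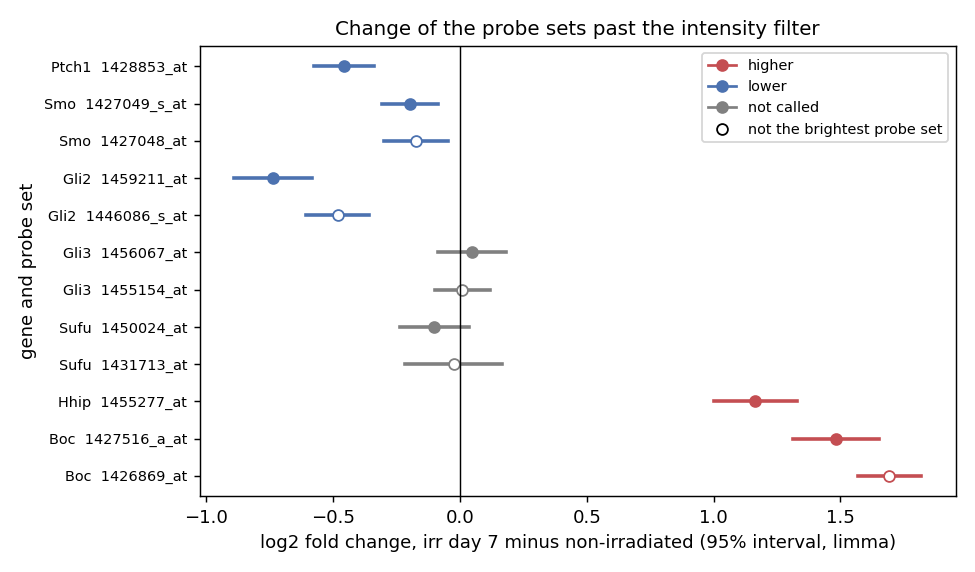
Change in log2 value from non-irradiated to irr day 7 NSCs (4 arrays each, horizontal axis) with its 95% interval from limma for the 12 probe sets past the intensity filter (vertical axis), filled for the brightest probe set of a gene, red when called higher, blue when called lower and gray when not called. Both probe sets of Boc, Gli2, Smo, Gli3 and Sufu lie on the same side or cross zero together, from 1.69 for a Boc to -0.74 for a Gli2 probe set. The Hhip and the second Gli2 probe set were below a signal of 100 in 1 group, so that their sizes are only bounded, at 1.45-fold and 1.19-fold.

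Of the 3 GLI transcription factors, Gli2 fell, Gli3 did not pass the test and Gli1 was below the filter. Gli1, whose RNA is a common readout of the active pathway, read 5.88, 6.50, 6.07 and 6.40 in non-irradiated and 5.78, 6.09, 6.10 and 6.08 in irr NSCs by its single probe set. These values overlap and none reached the signal of 100, so no change could be given for Gli1. Gli2, the main activator, read 7.77, 7.87, 7.91 and 7.94 in non-irradiated and 7.24, 6.98, 7.23 and 7.09 in irr NSCs by 1459211_at. All irr values were below all non-irradiated ones, and the log2 value fell by 0.74 (95% interval -0.89 to -0.58, adjusted p = 5.4e-06 from limma). A second Gli2 probe set, 1446086_s_at, was designed on the same sequence record as 1459211_at. It passed the filter through the non-irradiated arrays alone and was at least 1.19-fold lower. Gli3, mostly a repressor, read 8.71, 8.84, 8.84 and 8.75 against 8.97, 8.80, 8.81 and 8.74 by 1456067_at, with overlapping groups. Its log2 fold change of 0.05 did not pass the test (95% interval -0.09 to 0.18, adjusted p = 0.49 from limma), and 1455154_at gave 0.01 (95% interval -0.10 to 0.12). The interval of 1456067_at does not reach a change of the size seen in Gli2.

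Sufu, which binds GLI proteins in the cytoplasm, read 8.92 to 9.16 in non-irradiated and 8.86, 8.85, 8.96 and 8.97 in irr NSCs by 1450024_at. The groups overlapped, and the log2 fold change of -0.10 did not pass the test (95% interval -0.24 to 0.03, adjusted p = 0.16 from limma). A second probe set gave -0.02 (adjusted p = 0.81 from limma), and the other was below the filter.

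Changes were set against each other within 7 pairs of genes, as the difference of their log2 values on each array. The difference was -0.79 for Gli2 less Gli3, -0.26 for Ptch1 less Smo and 1.17 for Boc less the related co-receptor Cdon. Each of these 3 differences separated all irr from all non-irradiated arrays, with p = 0.029 (exact permutation test, two-sided), the smallest that 4 arrays against 4 allow. Adjusted over the 7 pairs this is 0.05, which is not under 0.05. For Ptch1 less Hhip no size is given, since Hhip has only a bound. The 3 pairs with Gli1, whose values lay below the filter, had p = 0.057 to p = 0.29 in the exact permutation test.

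**Figure D3:**
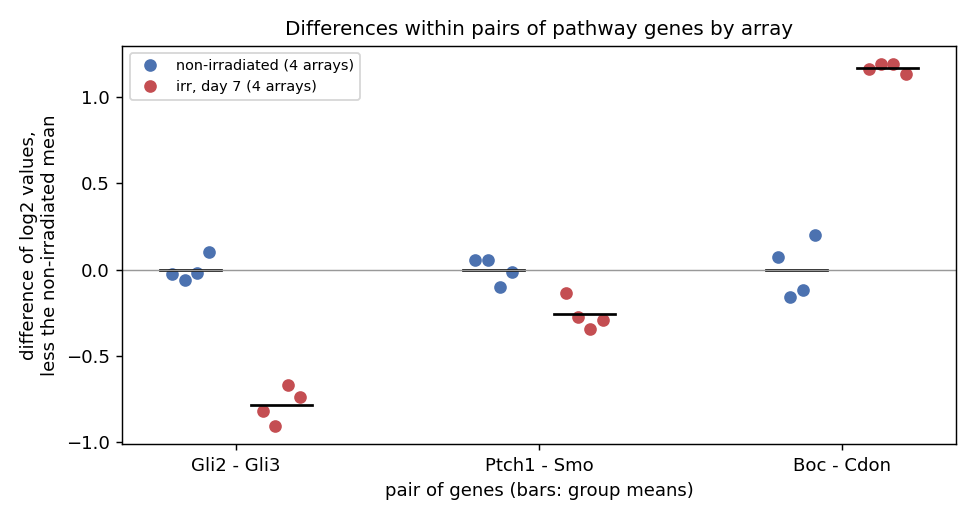
Difference of the log2 values of a pair of genes on each array, less its mean over the non-irradiated arrays (vertical axis), for the 3 pairs whose genes exceed the intensity filter in both groups (horizontal axis). Bars are group means, and the irr arrays (red) lie apart from the non-irradiated arrays (blue) in each pair, with mean differences of -0.79, -0.26 and 1.17 from left to right.

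GLI proteins bind DNA at a consensus of which GACCACCCA is the usual form, so the available promoters of called genes are shown for the letters nearest to it. RefSeq promoters (build GRCm38.p6) were at hand for 6 of the 9 genes, among them Gli2, Ptch1, Smo and Hhip. None was at hand for Boc, the called gene with the largest change, or for Shh and Gli1. The 250 bases before the start were searched on both strands. Each stretch is printed 5′ to 3′ on the strand of the gene, with the 9 letters of fewest mismatches (the first such, where several tie) in capitals, which in Smo and Ptch1 face the other way. The stretches lie at chr1:119053789-119053837 (Gli2, minus strand), chr13:63565843-63565891 (Ptch1, minus strand), chr6:29735426-29735474 (Smo, plus strand) and chr8:80058140-80058188 (Hhip, minus strand).
Gli2: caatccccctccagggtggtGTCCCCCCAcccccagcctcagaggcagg
Ptch1: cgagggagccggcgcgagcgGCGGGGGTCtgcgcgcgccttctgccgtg
Smo: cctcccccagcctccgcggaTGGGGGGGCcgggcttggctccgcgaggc
Hhip: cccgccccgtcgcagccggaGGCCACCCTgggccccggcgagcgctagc

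None of the 6 promoters held the consensus in this window, nor a stretch with 1 mismatch, which 0.225% and 5.79% of 32851 promoters did. The best stretch had 2 mismatches in Gli2, Smo and Hhip, as 51.8% of all promoters do or better, and 3 in Ptch1, Gli3 and Sufu. Hhip rose and Gli2 and Smo fell with the same number of mismatches, and the part of these letters in the changes was not tested. These letters describe the window only, and sites further away were not searched.

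Other genes of the pathway moved both ways. Of 7 receptor and co-receptor genes tested, 4 were higher and 2 were lower (85.7% called, median log2 fold change 0.32), where 77.3% of all genes were called, 40.2% higher and 37.1% lower. Hhip, among the 4 higher, entered the test through the irr arrays alone, so its place in this count is no support for it. Besides the 9 genes, Gas1, a membrane-anchored co-receptor, rose by 0.43 (adjusted p = 2.7e-05 from limma) and Cdon by 0.32 (adjusted p = 9.9e-05 from limma). Their probe sets were divided, from -0.19 to 0.55 for Gas1 and from -0.56 to 0.32 for Cdon, so that the mean of both Cdon probe sets was -0.12. Of 9 genes of ligands and their release, 3 were tested. Disp2, a paralog of the ligand exporter gene Disp1, read 7.34, 7.22, 7.22 and 7.19 in non-irradiated and 9.76, 9.66, 9.79 and 9.81 in irr NSCs. These groups lie far apart, and Disp2 rose by 2.51 (adjusted p = 4.3e-10 from limma). Disp1 rose by 0.46 (adjusted p = 1.3e-05 from limma), and Scube1, of a family of secreted proteins that help release the ligand, fell by 0.37 (adjusted p = 0.0021 from limma).

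Of 16 genes of signal transduction tested, 7 rose, 4 fell and 5 missed the threshold (68.8% called, beside 77.3% of all genes, median 0.05). Stk36, among the 7, was below a signal of 100 on all non-irradiated arrays and above it on 2 irr arrays. It entered the test through the irr arrays alone, so its place in this count is no support for it. Btrc and Spop, both adaptors of ubiquitin ligases that act on GLI proteins, rose by 0.79 and 0.73, although a second Btrc probe set read -0.15. The kinase gene Csnk1e fell by 0.53. After Gli2 it had the largest decrease of this list. Kif7, a ciliary kinesin of the pathway, fell by 0.18 (adjusted p = 0.0034 from limma), and was named after its value was seen.

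Of 15 known GLI target genes tested, 6 rose, 6 fell and 3 missed the threshold (80% called, median -0.06), close to the shares of all genes called (77.3%), higher (40.2%) and lower (37.1%). Hhip, among the 6 that rose, entered the test through the irr arrays alone, so its place in this count is no support for it. The D-type cyclin gene Ccnd2 read 11.72 to 11.76 in non-irradiated and 13.47 to 13.60 in irr NSCs and rose by 1.79 (adjusted p = 8.3e-10 from limma), with all 7 of its probe sets between 0.67 and 1.91. Bcl2, which protects from apoptosis, rose by 0.90. Besides Ptch1, the genes called lower were Nkx6-1, Nkx2-1, Foxa2 and Mycn (-0.33 to -0.16) and Nkx2-2, named after their values were seen. Nkx2-2 passed the filter on 2 non-irradiated arrays and no irr array, so that no size is given for it. Its place among the 6 that fell is likewise no support for that count. All but Mycn encode transcription factors of ventral neural patterning or ventral forebrain, and their probe sets lay near the filter, with means of 6.64 to 7.72 in non-irradiated NSCs. The groups of Foxa2 overlapped. Olig2, another ventral patterning factor of this list, was far brighter, with means of 12.75 and 12.62 in non-irradiated and irr NSCs. It was not called (-0.13, adjusted p = 0.061 from limma). Targets in this list are shared with other pathways.

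Most primary cilium genes called were higher. Of 34 tested, 20 rose, 3 fell and 11 missed the threshold (67.6% called, median 0.20 beside 0.01 over all genes). Cep290, among the 20, was below a signal of 100 on all non-irradiated arrays and above it on 1 irr array. It entered the test through that array alone, so its place in this count is no support for it. Among all genes, 77.3% were called, 40.2% higher and 37.1% lower. By the brightest probe set none of them changed 2-fold, although another Bbs4 probe set read 1.39. The largest changes by the brightest probe set among genes higher were those of Bbs1, a subunit of the ciliary BBSome (0.84), Cc2d2a, of the transition zone (0.74), Kif3b, a subunit of the kinesin that carries cargo up the cilium (0.70), and Dync2h1, the motor that carries it back (0.68). Only 1 of 4 Kif3b probe sets reads this change, and by probe sets with plain identifiers it was 0.19 (adjusted p = 0.070 from limma).

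**Figure D4:**
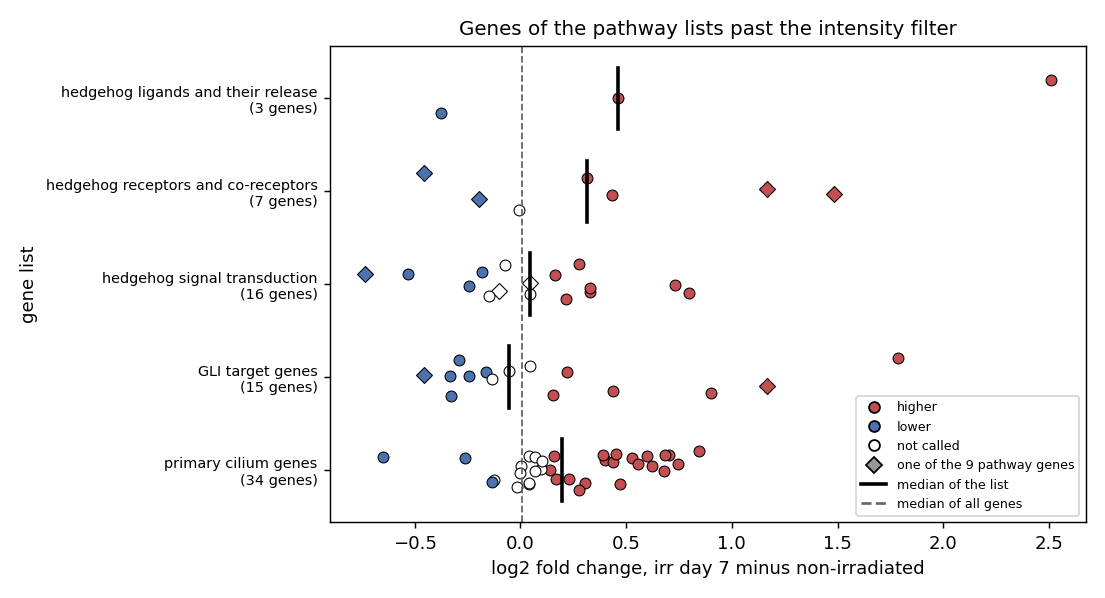
Change in log2 value from non-irradiated to irr day 7 NSCs (4 arrays each, horizontal axis) of each gene past the intensity filter in 5 pathway lists (vertical axis, height within a list only separates points); red genes were called higher, blue lower and open ones not called, diamonds are among the 9 genes, genes below a signal of 100 throughout 1 group, such as Hhip, are at their fitted value, black bars are list medians and the dashed line is the median of all genes. Receptors and targets lie on both sides of zero, and the cilium genes reach from -0.65 to 0.84 with a median of 0.20.

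Markers of other states moved over the same arrays. All 6 tested genes of cycling cells were lower (median -1.87), and their summed signal ran from 42050 to 43056 in non-irradiated and from 16526 to 18002 in irr NSCs. Of 7 astrocyte markers, 5 were higher and 2 were lower, with sums of 17291 to 18268 and of 19973 to 20236. The lower ones were Aldoc (-0.73) and Gfap (-0.18, adjusted p = 0.019 from limma). Gfap lay near the filter, over a signal of 100 on 3 non-irradiated arrays and 1 irr array, and its groups overlapped. The authors reported induction of GFAP in irr NSCs by real-time PCR and at the protein level. Of 6 mesenchymal markers, 3 were tested, Col3a1 (1.54) was higher, Acta2 (-1.75) was lower and Dcn, below a signal of 100 on all non-irradiated arrays, was at least 1.06-fold higher, with sums of 1416 to 1524 and of 2499 to 2651, and Col1a1, Col1a2 and Pdgfrb were below the filter. Of 5 tested neuron markers, 1 was higher and 3 were lower, 1 of 2 microglia markers was higher, the 1 endothelial marker was lower, and none of 3 oligodendrocyte markers was called. The neuron marker called higher was Syt1. Like Dcn and the astrocyte marker Aqp4, Syt1 entered the test through the irr arrays alone, so their places in these counts are no support for them. Of 10 NSC markers, 4 were higher and 3 were lower, and of 7 reference genes, 2 were higher and 2 were lower. Hprt, a reference gene called lower, passed the filter on 1 non-irradiated array and no irr array. Over all genes tested, 77.3% were called, 40.2% higher and 37.1% lower, so counts near these shares do not set markers apart. The part of these markers in the changes of Boc, Hhip and the other pathway genes was not tested. The genes whose values over the 8 arrays were most like those of Boc, by the mean absolute difference of log2 values centred on each gene, were Tcn2 (0.05), Wnt9a (0.05) and Ctsb (0.06), and those most like Gli2 were Mbd3, Nepro and Khsrp (0.05 each), among 11372 genes. Their log2 fold changes were 1.44 to 1.53 and -0.83 to -0.71. These had to lie near those of Boc and Gli2, because the genes were picked for like values on the same arrays.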

How the data were processed

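RNA of 4 non-irradiated and 4 irr day 7 NSC cultures was hybridized to Affymetrix Mouse Genome 430 2.0 arrays. The authors read intensities with GCOS and normalized with RMA in R, and the log2 values deposited by the authors (2.48 to 14.98) were used as they stand. RMA equalizes the arrays' distributions, so a change common to all genes is not seen. Of 45101 probe sets, 64 controls were left out. Names came from the platform annotation, with symbols updated by Entrez number. Probe sets with several symbols (932) or none (9211) were not assigned to genes. Probe sets over an intensity of 100 on at least 1 array (21919) were tested with limma 3.58.1 in R 4.3.3, two-sided, with Benjamini-Hochberg adjustment over all of them, and called at an adjusted p under 0.05. The procedure was tested on simulated data. A gene is read by its brightest probe set. "At least" folds take the intensity of 100 for a group below it on all arrays. Pairs of genes and of probe sets were compared by exact permutation over the 8 arrays (scipy 1.17.1). The number of arrays limits the precision. The genes and lists were chosen with earlier results of these data known, from textbook knowledge. Named genes are the 9 genes, their family members, the 4 called genes of each list with the largest change and the 3 most like Boc and Gli2. Alternatives were the filter, scaling, limma settings, a replicate block, the probe set, the threshold and arrays left out. Same-numbered arrays of the groups did not all deviate together. Figures were drawn with matplotlib 3.10.9.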

Additional observations from a re-analysis of the deposited data

Results flagged for a closer look

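In 6 of 76 groups of 4 arrays, 1 array stood apart from the other 3 by Dixon's criterion for an outlying value at the 5% level, where chance gives about 1 in 20. Past the filter these were Hhip by 1455277_at on irr replicate 1 (7.02, the others 7.22 to 7.25), Cdon on non-irradiated replicate 1 (11.35, the others 11.44 to 11.45) and Csnk1e on non-irradiated replicate 1 (10.97, the others 11.03 to 11.04). Below the filter they were Gli1 on irr replicate 1 (5.78), a Hhip probe set on non-irradiated replicate 4 (4.75) and a Smo probe set on irr replicate 4 (3.59).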

How the results depend on the processing

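Boc, Hhip, Gli2 and Ptch1 kept their direction under every alternative that could measure them. Gli3 read -0.008 without irr replicates 1 and 2, and Cdon -0.12 with the mean of its probe sets. The counts of called genes, higher then lower, were 2 and 3 for the 9 genes, and leaving out any 1 array gave 2 and 3 again. With an intensity over 200 Hhip dropped out (1 higher), and GLI targets had 2 and ligand genes 0 lower. With no filter, ligand genes had 4 lower, Shh among them. Against a 1.5-fold change and at 2-fold, 0 genes were lower among the 9 genes and in all 5 lists, and the genes higher were 1 and 1 for ligands, 2 and 2 for receptors, 2 and 0 for signal transduction, 3 and 2 for GLI targets and 1 and 0 for cilium genes. Without irr replicates 1 and 2, 1 receptor gene and 1 cilium gene were lower. Differences between pairs of genes kept their sign throughout. With arrays left out only their values were computed. Deviations of same-numbered arrays correlated at 0.04, 0.38, -0.21 and 0.51, and only replicates 2 and 4 correlated best with their own number, so the numbers were not taken to pair the samples. With a replicate block, 2 of the 9 genes were higher and 3 lower. Over all probe sets tested, 8377 were then higher and 8173 lower in place of 8339 and 8128. Centring on 7 reference genes moved the median of all probe sets tested from -0.01 to 0.03. Values near a signal of 100 limit what can be said of Shh, Gli1 and Hhip.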
